A study of Mus musculus with 1 sample.

Results

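Cytosolic ribosomal protein genes were followed across the stem and progenitor cells of mouse bone marrow. Members were all rows of the deposited count matrix with an Rps or Rpl symbol made of a number and at most one letter a, x or l and one further digit, together with Rpsa, Rplp0, Rplp1 and Rplp2. Rows of pseudogenes, predicted genes and the Rps6k kinases were left out. This gave 83 of 32285 genes, of which 51 encode proteins of the large subunit and 32 of the small subunit. All 83 are annotated as protein-coding and lie on 19 chromosomes.

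Single-cell RNA-seq had been run on 1 library of lineage-negative, Kit-positive cells from the femora and tibiae of C57BL/6 mice. The cells were of the control genotype Brd9fl/fl, without the Mx1-Cre transgene that would delete Brd9, and had been exposed to polyinosinic-polycytidylic acid (pIpC, an interferon inducer) at 3 doses of 20 mg/kg, 8 weeks before preparation. The series text has primary mice injected 4 weeks after birth, whereas the sample's labels give a CD45.2(+) donor and a CD45.1(+) CD45.2(-) recipient injected after transplantation. The paper describes its single-cell samples as sorted from Brd9fl/fl control mice and names no transplant for them. It does not explain the labels, and this difference could not be settled. The Brd9-deleted library of the study is not analysed here, so every comparison is between kinds of cell within 1 library, without replicates and without a test.

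A ribosome joins a small subunit, which reads the mRNA, to a large subunit, which forms the peptide bond, and nearly every ribosomal protein is needed in 1 copy per subunit. The mRNAs of these proteins carry a tract of C and T bases at their 5′ end, the 5′ terminal oligopyrimidine tract, through which their translation follows growth signals. Blood formation is sensitive to their dose: mutations of RPS19 and other ribosomal protein genes cause Diamond-Blackfan anaemia, a failure of red cell production, and loss of RPS14 contributes to the anaemia of myelodysplastic syndrome with deletion of part of chromosome 5q.

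The starts of 8 members are shown because their levels differed most, or least, between kinds of cell in the results that follow. Each line holds 20 bases before and 20 bases from the annotated first base of the transcript (RefSeq, GRCm38.p6, the mm10 assembly), on the coding strand. Capitals mark the longest run of C and T bases where it reached 8.
Rps27l, chr9:66946066-66946105, plus strand: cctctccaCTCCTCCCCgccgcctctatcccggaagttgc
Rps27, chr3:90213629-90213668, minus strand: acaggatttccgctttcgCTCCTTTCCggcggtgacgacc
Rps2, chr17:24720043-24720082, plus strand: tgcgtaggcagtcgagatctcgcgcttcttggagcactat
Rpl41, chr10:128549149-128549188, minus strand: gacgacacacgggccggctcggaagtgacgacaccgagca
Rpl4, chr9:64173367-64173406, plus strand: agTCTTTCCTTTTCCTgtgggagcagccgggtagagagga
Rpl39l, chr16:10170208-10170247, plus strand: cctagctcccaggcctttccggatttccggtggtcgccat
Rpl13, chr8:123102330-123102369, plus strand: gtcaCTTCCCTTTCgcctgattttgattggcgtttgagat
Rpl10a, chr17:28328451-28328490, plus strand: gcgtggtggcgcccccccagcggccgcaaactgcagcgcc
The window of Rps27 has a run of 9 such bases that begins 2 bases before the annotated first base, and that of its paralogue Rps27l has a run of 9 that begins 12 bases before it. Rps2, Rpl41, Rpl39l and Rpl10a have no run of 8 in these windows. Annotated first bases can lie away from the start that a cell uses, and 10 members have several, of which the start with the longest run is shown.

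Over the 63 members with a promoter entry, 30 (47.6%) had a run of at least 8 C or T bases in the 40 bases, against 18.4% of all 27025 genes. The letters CTTTCC on the coding strand, which can lie inside such a run, were in 17.5% of members and 2.3% of all genes. The letters CTTCCG, searched on both strands of 300 bases and able to overlap a run by their first 5 letters, were in 66.7% of members and 18.8% of all genes. These shares are descriptions of the letters only.

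Values are counts of unique molecular identifiers (UMIs), which tag each captured RNA molecule before amplification. The filter named by the study kept 7645 of 8817 barcodes, with 1592 to 49991 UMIs per cell and 151852381 in all. Cells were assigned to 12 gates by lists of lineage marker genes, none of which is a ribosomal protein gene, and a gate is called like a cell type. The gates held 5851 cells (76.53%), while 1712 cells met no gate, and 1591 (20.81%) lay near a limit. Every marker of a gate's own list was at least 1.5-fold higher in that gate than in the other gated cells. Since the same markers set the gates, this is no check of them. Of markers of other cells, those of stromal or endothelial cells summed to 0 to 18.99 counts per 1000000 UMIs (CPM) per gate and those of mature B or plasma cells to 38.68 to 142.7 CPM. Macrophage markers summed to 0.3111 to 148.4 CPM, the highest in later neutrophil-like cells. The T or NK cell list summed to 38.01 to 1510 CPM, of which Nkg7 made 58.67 to 99.97%. The part of these in the results was not tested. The part that free RNA in the droplets has in any level was not tested.

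The 83 members are 0.2571% of the genes and held 47027043 UMIs, 30.97% of all UMIs kept. The 10 most abundant members held 21.35% of these. Of the 83, 80 had over 10000 UMIs, and the remaining 3 were the paralogues Rpl39l, Rpl3l and Rpl10l. In cells thinned to 5000 UMIs, 77 members were found in at least 99% of 7546 cells. Levels of different members, and the paralogue and parent shares given below, are to be read with caution as amounts, since counts are not per length and the 3′ reads of a member can also match its processed pseudogenes (301 pseudogenes with Rpl or Rps names are annotated), and 34 members overlap another gene on the same strand.

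The summed share was highest in early neutrophil-like cells and lowest in conventional dendritic-like cells. The lowest place held in clusters and among the gates left in cells of low cycle gene share, but the highest was then later neutrophil-like (32.91%) and Flt3 MPP-like cells (33.99%). In the 1251 early neutrophil-like cells, 32.75% of UMIs were of members (exact 95% Clopper-Pearson interval 32.73 to 32.77, counting error only, as for all intervals below), and the median cell had 32.88%. The 251 conventional dendritic-like cells had 25.99% (25.94 to 26.04), with a median of 25.27% and quartiles of 22.75 and 28.80%. Flt3 MPP-like cells, the multipotent progenitors marked by Flt3, had 32.44% and later neutrophil-like cells had 32.24%.

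The share was 31.36% in eosinophil-like cells, 30.68% (30.65 to 30.72) in HSC-like cells, the gate of haematopoietic stem cell markers, 30.63% in monocyte-like cells and 30.62% in early erythroid-like cells. The share of monocyte-like cells differed by 0.05 and 0.01 percentage points from that of the gates above and below, and the counting intervals overlapped. Later erythroid-like cells had 30.37% and megakaryocyte-like cells 29.73%. Plasmacytoid dendritic-like cells had 29.16% and basophil or mast-like cells 28.06%. For each of the 11 pairs of neighbours in this order, the ranges between the quartiles of the cells overlapped, so that no gate was set apart from the next.

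**Figure D1:**
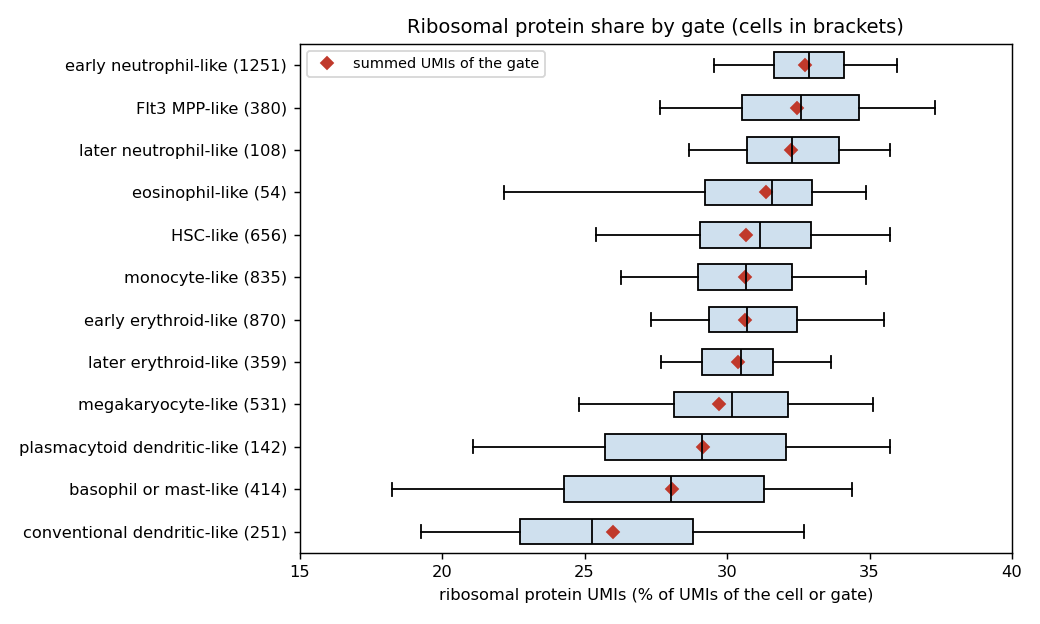
Ribosomal protein share of UMIs (horizontal axis, percent) in 12 gates, with the number of cells in brackets; boxes span the quartiles of cells with a line at the median, whiskers reach the 5th and 95th percentiles, and diamonds give the gate's summed share. The boxes of neighbouring gates overlap, and conventional dendritic-like cells are lowest with a median of 25.27%.

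Cells of a gate varied more than counting gives. The SD of the share over cells was 1.912 percentage points in early neutrophil-like cells and 5.199 in basophil or mast-like cells, which was 5.88 and 12.34 times the SD that counting alone gives at their depths. The dendritic-like gates were also wide, with SDs of 4.551 and 4.198 percentage points, whereas later erythroid-like cells had 1.898. The balance of subunits changed little: small subunit proteins made 44.48% of member UMIs in early erythroid-like cells, 45.52% in HSC-like cells and 47.22% in later neutrophil-like cells, the lowest, an intermediate and the highest value.

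Along the path from HSC-like to Flt3 MPP-like cells, the share was 1.057-fold higher (1.055 to 1.059) in the latter. When 1 cell was drawn from each gate, the Flt3 MPP-like cell had the higher share in 64.45% of pairs. The median cell had 2644.5 member UMIs in the HSC-like gate and 5204 in the Flt3 MPP-like gate, a 1.968-fold difference, while UMIs of all other genes differed by 1.85-fold. Of 80 members tested, 1 was at least 1.5-fold higher and 0 at least 1.5-fold lower, against 11.1% and 25.8% of 10613 genes. The member at least 1.5-fold higher was Rps27l, and it was also the only one at least 1.5-fold away from the ratio of the sum (38.5% of all genes were).

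From HSC-like to early neutrophil-like cells the share was 1.067-fold higher (1.066 to 1.069), and higher in 69.62% of cell pairs. Here 3 of 80 members were at least 1.5-fold higher (14.9% of 11375 genes) and 2 at least 1.5-fold lower (48.4% of genes). The 3 were Rps27l, Rps2 and Rpl41, and the 2 were Rpl21 and Rps27. Relative to the sum, 7 members were at least 1.5-fold away (64.5% of genes), namely these 5 with Rps14 and Rpl17; Rpl17 is named after its values were seen. The median log2 ratio of members was 0.12, against -0.54 for all genes tested.

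From early to later neutrophil-like cells the share was 0.9845-fold (0.982 to 0.987), and the later cell was higher in 42.17% of pairs. Of 80 members, 0 were at least 1.5-fold higher (4.86% of 10346 genes), 0 at least 1.5-fold lower (21.6%) and 0 that far from the sum (25.8%). The direction of this small difference turned to 1.008 with cells grouped by clusters and to 1.012 with the 50 most abundant other genes left out of the denominator.

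Early erythroid-like cells had 0.9979 times the share of HSC-like cells (0.9963 to 0.9994), and were higher in 48.6% of pairs. They had 9971.5 member UMIs in the median cell, 3.771-fold more than HSC-like cells, and 3.879-fold more UMIs of other genes. Of 80 members, 4 were at least 1.5-fold higher (21.4% of 11154 genes), 1 was at least 1.5-fold lower (41.8%), and 6 were that far from the sum (63.2%). The 6 were Rps27l, Rps2, Rpl41, Rplp0, Rpl4 and Rps27. The direction of the summed ratio turned to 1.015 with a stricter cell filter. In cells of 10000 to 20000 UMIs the ratio was 1.07 and in cells under the median cycle gene share 1.065; both settings were chosen after seeing the data.

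Later erythroid-like cells, defined by haemoglobin and late red cell genes, had 0.992 times the share of early ones (0.9907 to 0.9933). Of 80 members, 0 were at least 1.5-fold higher (11.5% of 10282 genes), 0 at least 1.5-fold lower (23.6%) and 0 that far from the sum (34.8%). The ratio was 1.004 when mitochondrial and haemoglobin UMIs were left out of the denominator, and 1.006 over all deposited barcodes. In all 5 comparisons the share of members past 1.5-fold was below that of all genes tested, most of which have fewer UMIs, and 3 of the comparisons share the HSC-like cells.

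**Figure D2:**
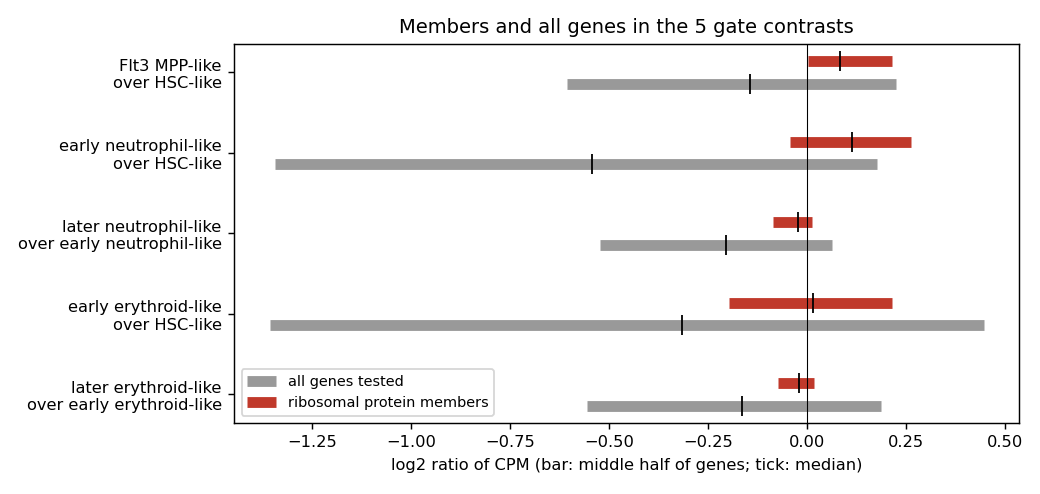
Log2 ratio of CPM (horizontal axis) in the 5 comparisons between gates for the 80 members tested (red) and all genes tested (grey); bars span the quartiles of genes and ticks mark the median. Bars of members are shorter than those of all genes, with medians of 0.12 and -0.54 for early neutrophil-like over HSC-like cells.

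Within the sum, a member was said to depart where its share of member UMIs in a gate was at least 1.5-fold away from its share in all other gated cells. This left 6 of 81 members (7.407%) with at least 100 UMIs, against 90.9% of 12115 genes, each set against the same member sum. Among genes with at least 10000 UMIs it was 5 of 80 members (6.25%) against 78.0% of 1712 genes. Of 965 pairs of a member and a gate, 66.74% lay within 1.1-fold and 99.17% within 1.5-fold of the sum. The 8 pairs beyond were 3 in HSC-like cells, 2 in later neutrophil-like cells and 1 each in basophil or mast-like, megakaryocyte-like and monocyte-like cells.

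**Figure D3:**
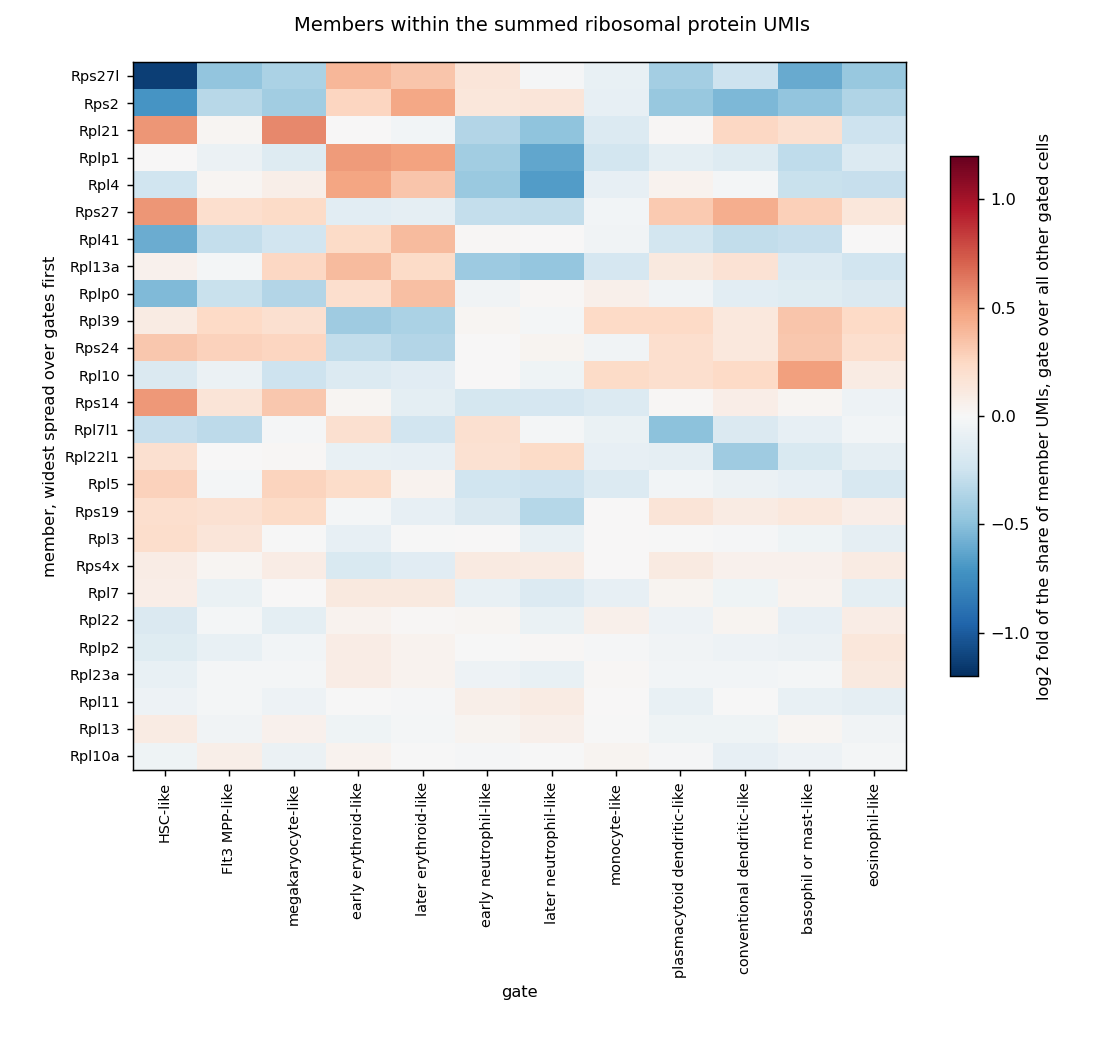
A choice of 26 members with over 10000 UMIs (rows, widest spread first) in 12 gates (columns); colour gives the log2 fold of its share of member UMIs in the gate over all other gated cells. Most cells of the map are pale, and Rps27l and Rps2 in HSC-like cells and Rplp1 and Rpl4 in later neutrophil-like cells are among the darkest low values.

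Rps27l, a p53-inducible paralogue of Rps27 in the small subunit, had the widest spread of the abundant members. Its level was 270.9 CPM in HSC-like cells (exact Poisson interval 258.2 to 284.0), 350.9 CPM in basophil or mast-like cells and 443.4 CPM in Flt3 MPP-like cells. It was 544.5 CPM in monocyte-like, 660.6 CPM in early neutrophil-like and 707.3 CPM in early erythroid-like cells. HSC-like cells were lowest of the 12 gates and both erythroid-like gates highest. Within the sum, Rps27l was 0.4579 times its share elsewhere in HSC-like cells (0.4362 to 0.4803) and 0.6579 times in basophil or mast-like cells.

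Rps27, the parent, had its highest level where Rps27l was lowest. It reached 2147 CPM in HSC-like cells, 1413 CPM in early erythroid-like cells and 1302 CPM in later neutrophil-like cells, its lowest. Of the UMIs of the pair, Rps27l therefore made 11.2% in HSC-like cells (10.71 to 11.71), 19.53% in Flt3 MPP-like cells and 20.43% in megakaryocyte-like cells. It made 33.36% in early erythroid-like, 33.29% in later erythroid-like, 32.12% in early neutrophil-like and 31.51% in later neutrophil-like cells. The dendritic-like, basophil or mast-like and eosinophil-like gates lay between 17.33 and 20.12%, and monocyte-like cells at 26.84%.

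Rps2, a small subunit protein near the mRNA entry channel, had 3078 CPM in HSC-like cells, 4178 CPM in Flt3 MPP-like cells and 5635 CPM in early neutrophil-like cells. It had 5649 CPM in early and 6525 CPM in later erythroid-like cells. Conventional dendritic-like cells were lowest with 2901 CPM, but with a lower member sum their fold within the sum was 0.6896, against 0.6113 in HSC-like cells (0.6026 to 0.6201). Rpl41, the smallest ribosomal protein, went the same way, with 2823 CPM in HSC-like and 5278 CPM in later erythroid-like cells, and a fold within the sum of 0.6601 (0.6503 to 0.67) in HSC-like cells.

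Rpl4, a large subunit protein that lines the peptide exit tunnel, had 2084 CPM in early erythroid-like, 1372 CPM in early neutrophil-like and 1084 CPM in later neutrophil-like cells. Its fold within the sum was 1.388 in early erythroid-like cells and 0.6281 (0.6014 to 0.6557) in later neutrophil-like cells, the lowest of the 12 gates. Small nucleolar and predicted RNA genes overlap Rpl4 on the same strand. Rpl13a, known also for a regulatory role outside the ribosome, had a like order, with 4270 CPM in early erythroid-like and 2684 CPM in later neutrophil-like cells, but stayed inside 1.5-fold of the sum.

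The stalk of the large subunit, made of Rplp0, Rplp1 and Rplp2, recruits the factors that drive elongation. Its 3 genes made 5.535% of member UMIs in early erythroid-like and 5.848% in later erythroid-like cells, against 4.07% in HSC-like and 4.069% in later neutrophil-like cells. Rplp1 had 7712 CPM in later erythroid-like, 5793 CPM in HSC-like and 3969 CPM in later neutrophil-like cells, where its fold within the sum was 0.65 (0.6355 to 0.6648). Rplp0 was lowest in HSC-like cells (3982 CPM, 0.6919-fold within the sum) and highest in later erythroid-like cells (7012 CPM). Rplp2 varied least of the 3, from 0.9049-fold within the sum in HSC-like cells to 1.096-fold in eosinophil-like cells. High values in erythroid-like cells were those of Rplp0 and Rplp1, since Rplp2 had 3128 and 3037 CPM there and 3177 CPM in early neutrophil-like cells.

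Several members ran the other way, with their highest share in HSC-like or megakaryocyte-like cells. Rpl21 had 4629 CPM in HSC-like and 4587 CPM in megakaryocyte-like cells, against 2473 CPM in later neutrophil-like cells; its folds within the sum were 1.444, 1.496 and 0.714. Rps14, the small subunit gene of the 5q deletion, had 6516 CPM in HSC-like, 4689 CPM in early erythroid-like and 4143 CPM in conventional dendritic-like cells, and 1.438-fold within the sum in HSC-like cells. Rps27 was 1.447-fold within the sum in the same gate.

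Rps24 and Rpl39 were low in erythroid-like cells. Rps24, a Diamond-Blackfan anaemia gene, had 7847 CPM in HSC-like, 5398 CPM in early erythroid-like and 5029 CPM in later erythroid-like cells. Rpl39, a small protein at the exit tunnel, had 2636 and 2609 CPM in the erythroid-like gates and 3584 CPM in HSC-like cells. Neither was 1.5-fold away from the sum in any gate.

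Of the genes in which mutations cause Diamond-Blackfan anaemia, 20 are members. They made 22.42% of member UMIs in later erythroid-like and 22.79% in early erythroid-like cells, the lowest values, and 24.82% in plasmacytoid dendritic-like cells, the highest, with 24.12% in HSC-like cells. Rps19, the most often mutated of them, had 5140 CPM in HSC-like, 4437 CPM in early erythroid-like and 3750 CPM in later neutrophil-like cells. Rpl5 and Rpl11, which with the 5S rRNA form the particle that can bind Mdm2, made 2.263% of member UMIs in HSC-like, 2.256% in early erythroid-like and 1.967% in eosinophil-like cells. Rpl5 was 1.212-fold within the sum in HSC-like cells and 0.8398-fold in later neutrophil-like cells, while Rpl11 lay between 0.9292 and 1.07-fold in all 12 gates.

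Among the members closest to the sum in every gate were Rpl10a, Rpl13, Rpl11 and Rpl23a. Rpl10a ranged from 0.9337 to 1.048-fold within the sum and Rpl13 from 0.9635 to 1.072-fold. Rpl23a ranged from 0.9381 to 1.084-fold. Across the 12 gates, the level of Rpl10a had a Pearson r of 0.9685 with the sum of the other members, the highest of 81 members. The median r was 0.6681, and 24 members were under 0.5. All gates come from 1 library, so these r values are descriptions.

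Of the members, 6 are paralogues of another member, and 3 of these had under 10000 UMIs. Rpl22l1 made 35.58% of the UMIs of the pair with Rpl22 in HSC-like cells (34.9 to 36.27), 34.91% in later neutrophil-like cells and 24.11% (23.16 to 25.08) in conventional dendritic-like cells. Over the remaining gates it made 27.58 to 32.21%. Its own level was 1148 CPM in later neutrophil-like, 1059 CPM in HSC-like and 591.9 CPM in conventional dendritic-like cells, while Rpl22 had 1917 CPM in HSC-like cells and 2322 CPM in early neutrophil-like cells.

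Rpl7l1, a paralogue of Rpl7, made 4.244% of its pair in early neutrophil-like cells (4.116 to 4.374), 2.965% in HSC-like cells and 2.617% (2.249 to 3.028) in plasmacytoid dendritic-like cells. Rpl39l, known from the male germ line, had 150 UMIs in all gated cells, against 403075 of Rpl39. Of these, 53 were in monocyte-like cells (2.96 CPM, 2.218 to 3.872), 3.131-fold within the sum (2.197 to 4.421; 2.003 with stricter gates, 1.211 to 3.203), and 35 in early neutrophil-like cells (1.21 CPM). Megakaryocyte-like cells had 3 UMIs, 0.2546-fold within the sum (0.0519 to 0.7588; 0.1163 with stricter gates), and HSC-like cells had 1.

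Rpl3l, a paralogue of striated muscle, had 25 UMIs over the gated cells, against 429060 of Rpl3. Rpl10l, a testis gene, had 0 UMIs, which allows a level of up to 0.02512 CPM (3 UMIs over the gated cells), against 327342 UMIs of Rpl10. Rpl10 was itself 1.41-fold within the sum in basophil or mast-like cells, its highest, at 3447 CPM. Rps4x, on the X chromosome, had 4368 CPM in early erythroid-like and 5470 CPM in early neutrophil-like cells, and no row of the counts holds its paralogue Rps4l.

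**Figure D4:**
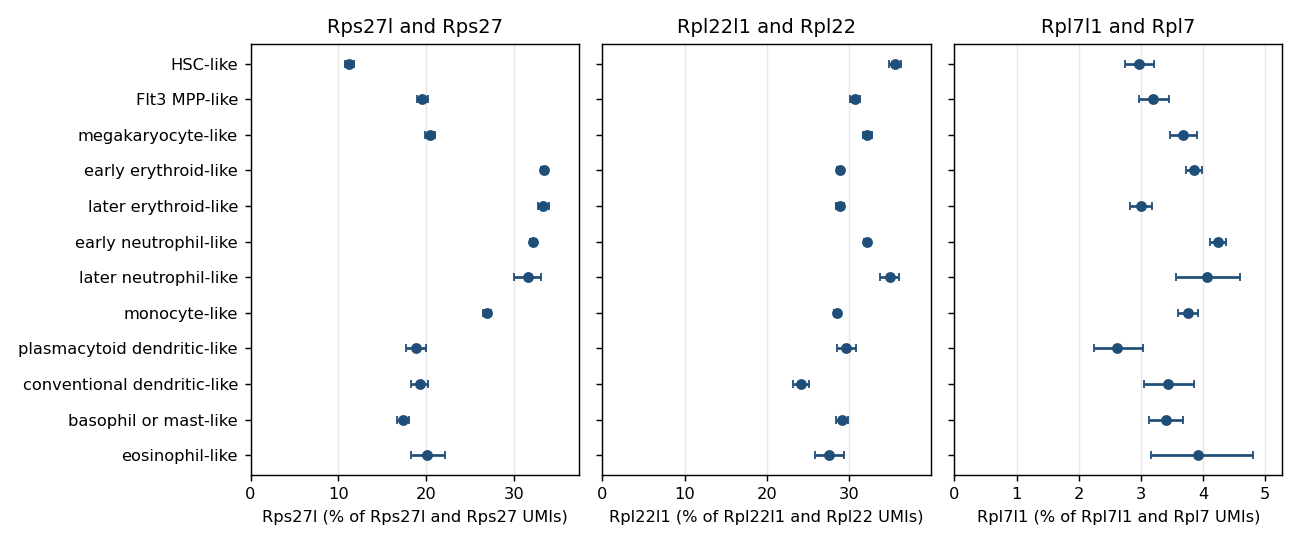
Percent of the UMIs of a paralogue and its parent that were of the paralogue (horizontal axis, from 0) in 12 gates, for 3 pairs, with exact 95% intervals. The Rps27l share is 11.2% in HSC-like cells and 31.51 to 33.36% in the erythroid-like and neutrophil-like gates, whereas the Rpl22l1 share stays between 24.11 and 35.58%.

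Genes that assemble ribosomes differed between gates more than the members did. The 30 ribosome biogenesis factors process rRNA and assemble subunits in the nucleolus. They summed to 2.451-fold more in early erythroid-like than HSC-like cells (2.422 to 2.48). Of these factors, 28 were at least 1.5-fold higher and 0 lower, against 21.4% and 41.8% of all genes. In later erythroid-like cells they summed to 0.5156 times the early level (0.5113 to 0.52). There, 0 were at least 1.5-fold higher and 27 lower, against 11.5% and 23.6% of all genes. Nolc1 had 76.20 CPM in HSC-like and 312.6 CPM in early erythroid-like cells, and Rrp9 had 61.14 CPM in early and 17.88 CPM in later erythroid-like cells. The summed members differed by 0.9979-fold and 0.992-fold in the same comparisons.

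In early neutrophil-like over HSC-like cells the biogenesis factors summed to 1.563-fold (16 of 30 at least 1.5-fold higher, 0 lower, against 14.9% and 48.4% of all genes), and in later over early neutrophil-like cells to 0.7102-fold (0 higher, 12 lower, against 4.86% and 21.6%). In Flt3 MPP-like over HSC-like cells they summed to 1.391-fold, with 6 higher and 0 lower, against 11.1% and 25.8% of all genes. Sbds, which helps release the large subunit for translation, was among the lowest of the list in 3 comparisons. It had 83.11 CPM in HSC-like, 56.46 CPM in Flt3 MPP-like, 65.95 CPM in early neutrophil-like and 80.45 CPM in early erythroid-like cells. In later over early neutrophil-like cells it was instead the highest of the list, at 1.297-fold (1.1 to 1.521). The same held in later over early erythroid-like cells, at 0.9395-fold (0.8651 to 1.02).

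The 11 genes of RNA polymerase I and its factors, which transcribe rRNA, summed to 1.579-fold in early erythroid-like over HSC-like cells (7 higher, 0 lower). They summed to 0.741-fold in later over early erythroid-like cells (0 higher, 6 lower). For early neutrophil-like over HSC-like cells the sum was 1.064-fold, with 1 higher and 1 lower, against 14.9% and 48.4% of all genes. For all genes, the shares at least 1.5-fold higher and lower were 21.4% and 41.8% in early erythroid-like over HSC-like cells, and 11.5% and 23.6% in later over early erythroid-like cells. The 78 mitochondrial ribosomal protein genes summed to 1.915-fold in early erythroid-like over HSC-like cells (62 higher, 0 lower). In early neutrophil-like over HSC-like cells they summed to 1.683-fold (53 higher, 1 lower, against 14.9% and 48.4% of all genes). Mrpl18 had 117.4 CPM in HSC-like and 324.0 CPM in early neutrophil-like cells, while Mrpl52 had 273.7 and 98.84 CPM.

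The 29 initiation factors load ribosomes on mRNA. They summed to 1.427-fold in early erythroid-like over HSC-like cells (17 higher, 1 lower, against 21.4% and 41.8% of all genes). In early neutrophil-like over HSC-like cells they summed to 1.103-fold (6 higher, 1 lower, against 14.9% and 48.4% of all genes). The helicase gene Eif4a2 was the lowest of the list in both, with 299.9 CPM in HSC-like, 131.7 CPM in early erythroid-like and 76.29 CPM in early neutrophil-like cells. The list of 8 elongation factors also held Tpt1, a growth-related protein that is not itself an elongation factor. This list summed to 0.9857-fold (4 higher, 0 lower) and 0.8581-fold (2 higher, 1 lower) in the same comparisons. The shares of all genes given above apply to these counts too. Without Tpt1, a choice made after seeing the data, the sums were 1.143-fold (1.134 to 1.152) and 0.9559-fold (0.9483 to 0.9635). Eif5a was higher, with 592.5 CPM in HSC-like, 1528 CPM in early erythroid-like and 1468 CPM in early neutrophil-like cells, and Tpt1 was lower, with 5975, 4044 and 3983 CPM.

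Fau, Rack1 and Rpl36al encode ribosomal proteins under other symbols and were not members. Rack1 had 2890 CPM in HSC-like, 2430 CPM in early neutrophil-like and 3637 CPM in early erythroid-like cells. Rpl36al, a copy of Rpl36a, had 631.8 CPM in HSC-like, 1408 CPM in early neutrophil-like and 1221 CPM in early erythroid-like cells, and Fau had 3759, 4836 and 3702 CPM. Across the 12 gates, the r between a list's share of UMIs and the member share ranged from -0.138 for elongation factors with Tpt1 to 0.492 for biogenesis factors, whose share was 1.177% in early erythroid-like and 0.4312% in conventional dendritic-like cells.

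**Figure D5:**
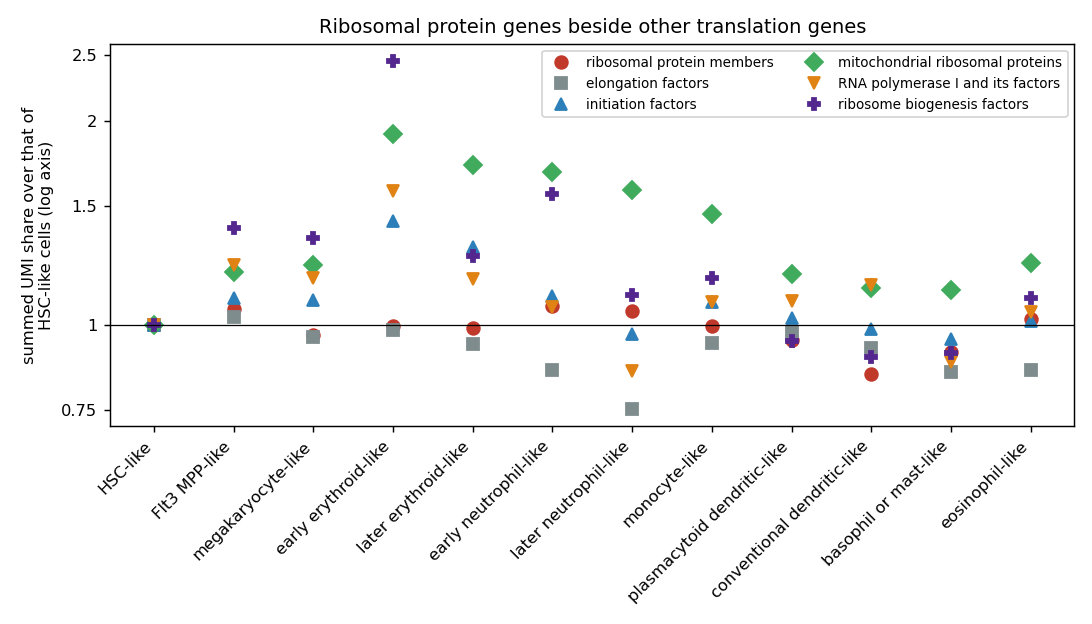
Summed share of UMIs of the members and of 5 lists of translation genes in 12 gates, each divided by its share in HSC-like cells (vertical axis, log scale, HSC-like cells at 1); elongation factors include Tpt1. Biogenesis factors spread 2.73-fold between their highest and lowest gate, and the members from 25.99 to 32.75% of UMIs.

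Of 9631 other genes compared over the 12 gates, 0 had a Pearson r above 0.9 with the member share. The 8 with the highest r were Foxred1 (0.8904), Cdc26, Naca, Ccnh, Hsp90ab1, 1700007L15Rik, Pebp1 and Tmem223 (0.8178). Naca, a subunit of the complex that binds nascent chains at the ribosome, had an r of 0.8438 and spread 1.375-fold between gates. Hsp90ab1, a cytosolic chaperone, had 0.8375 and spread 1.844-fold. The points share a library and differ in depth, and 8 of so many genes were picked by the measure itself.

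Within gates, the member share was lower where the share of cell cycle genes was higher. The cells of a gate were divided into 3 equal parts by their share of S and G2 or M phase gene UMIs, and the top part had a lower median member share than the bottom part in 12 of 12 gates. In early neutrophil-like cells it was 32.25% in the top and 33.46% in the bottom part, and in HSC-like cells 30.24 and 31.88%. The widest gap was in conventional dendritic-like cells, with 22.41 and 27.59%. Spearman's rho over cells ranged from -0.5421 in megakaryocyte-like to -0.2243 in later neutrophil-like cells, as a description, since cells of 1 library are not replicates and the 2 shares have 1 denominator.

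Depth and mitochondrial share moved with the member share in different directions in different gates. With cells divided by UMIs, the top- and bottom-part median member share was 29.96 and 32.28% in early erythroid-like cells but 30.38 and 26.24% in plasmacytoid dendritic-like cells. By mitochondrial share it was 31.60 and 30.67% in HSC-like cells and 30.18 and 31.53% in early erythroid-like cells. HSC-like cells had the lowest median depth (8460 UMIs) and the highest mitochondrial share (4.752%), and early erythroid-like cells had 32694 UMIs and 4.038%. The share ratios in cells of like depth or low cycle gene share are given for 4 of the 5 comparisons; for later over early erythroid-like cells too few cells were left. No other test of their part was made.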

How the data were processed

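The authors deposited UMI counts per gene and barcode, which Cell Ranger 6.0.2 gave on an mm10 transcriptome for a 10x Chromium 3′ library, at barcodes called as cells and before their own filter. The labels describe a bulk RNA extraction and kit, but the counts have the single-cell form. The counts are whole numbers and were not normalized.

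The study's filter was applied: cells kept had between 1000 and 50000 UMIs, between 1000 and 6500 genes, and less than 7% mitochondrial UMIs. The score of a gate was the mean over its markers of the log-scaled level, centred and divided by its SD over cells. A cell entered the gate of highest score if this was at least 0.5 and led the next list by 0.25. At least 3 markers had to be detected. These limits were set on the marker genes alone after the counts had been seen, and gates of under 50 cells were not used. Scrublet (in Scanpy 1.11.5) marked 251 cells (3.283%), which were kept, and were removed in an alternative. Levels are summed UMIs of a gate per 1000000 UMIs (CPM). Intervals are exact at 95% (SciPy 1.17.1) and cover counting error only, since 1 library gives no spread between mice. A call is by a fixed 1.5-fold, over genes with at least 50 UMIs in a pair of gates or an expected 10 UMIs in a gate.

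The members and lists were chosen with earlier results of these data known. Named members were the 12 with the widest and 5 with the narrowest spread within the sum, paralogues with their parents (Rps4x as the parent of Rps4l, which has no row), the stalk, Rpl5, Rpl11, Rps19 and Rps14; named genes of other lists were the 2 highest and 2 lowest of a comparison, and 8 genes most like the sum. The results of some of these genes are not reported here. Ratio steps were tested on simulated data. Gene positions are from GENCODE M21 and promoter sequences from RefSeq, which held 63 of 83 members. Alternatives were all barcodes, a stricter filter (at least 5000 UMIs and under 5% mitochondrial), stricter gates, gates on thinned cells, clusters, other denominators and the median over cells.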

Additional observations from a re-analysis of the deposited data

Results flagged for a closer look

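Barcodes removed by the filter held 4177699 member UMIs, 26.78% of their UMIs, and entered no comparison of the main results. The median removed barcode had 8.991% member UMIs, against 31.27% in cells kept. The 909 barcodes with at least 7% mitochondrial UMIs had 15.87% in sum, while the 213 with at least 50000 UMIs or 6500 genes had 29.92%.

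The rows of 5 ribosomal protein pseudogenes held 9301 UMIs in cells kept, above the limit that a count of 0 allows. Rpl9-ps6, Rpl10-ps3 and Rpl36a-ps1 held nearly all of these, with 3746, 3349 and 2200 UMIs.

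Rps27rt, a further Rps27-like row outside the member rule, held 3587 UMIs. Its level was 34.72 CPM in HSC-like cells and 16.49 CPM in later neutrophil-like cells, the same order as for Rps27, and the share of its reads that came from Rps27 was not tested.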

How the results depend on the processing

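With 1 library, no replicate could be left out, and no paired analysis was possible because there is 1 sample. The ratios of later over early neutrophil-like, early erythroid-like over HSC-like and later over early erythroid-like cells turned direction in at least 2 settings each, whereas Flt3 MPP-like and early neutrophil-like over HSC-like cells stayed above 1 in every setting run. The cause was not tested for any of these. In the order Flt3 MPP-like over HSC-like, early neutrophil-like over HSC-like and early erythroid-like over HSC-like, the ratios of the summed share were 1.055, 1.072 and 0.9811 over all barcodes, 1.077, 1.082 and 1.015 with the stricter filter, and 1.021, 1.036 and 0.9716 in clusters made without members. They were 1.051, 1.064 and 0.9871 with stricter gates, 1.05, 1.06 and 0.9898 with gates on thinned cells, and 1.046, 1.055 and 0.9847 as medians over cells. Without mitochondrial and haemoglobin UMIs they were 1.048, 1.046 and 0.9907, and without the 50 most abundant other genes 1.051, 1.08 and 0.9827. In settings chosen after seeing the data they were 1.085, 1.056 and 1.065 in cells under the median cycle gene share, and 1.099, 1.106 and 1.07 in cells of 10000 to 20000 UMIs. Later over early neutrophil-like cells had 1.008 in clusters, 0.9801 with stricter gates, 0.988 with thinned gates, 0.9785 in low-cycle cells, 0.9705 in cells of 10000 to 20000 UMIs and 1.012 without the 50 genes. Later over early erythroid-like cells had 1.006 over all barcodes, 0.9948 in clusters, 0.9955 with thinned gates, 1.004 without mitochondrial and haemoglobin UMIs and 0.996 without the 50 genes; the settings chosen after seeing the data left fewer than 50 cells here. Members that depart from the sum numbered 6 to 8 in settings that kept the 1.5-fold limit, and 2 (Rpl39l and Rps27l) at 2-fold. Rpl41 no longer departed with the stricter filter, nor Rplp1 in clusters. Of the values of the 8 departing pairs under alternatives, 46 of 48 stayed at least 1.5-fold away. Eosinophil-like cells were under 50 with the stricter filter and with thinned gates.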

Other observations

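Cells with markers of mature B or plasma cells, 25 in all and too few for a gate, had a summed member share of 15.94% and a median of 9.359%, with quartiles of 7.546 and 20.40%. The 24 B-lineage-like cells had 30.78% and the 28 T or NK cells 27.61%.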
